A study of Mus musculus with 4 samples.

Results

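Macrophage genes, 10 of the 40999 features listed, were followed in mouse embryonic gonads, collected a day apart from E11.5 to E14.5 (E, embryonic day). They are used as markers of fetal tissue macrophages and were found in the deposited tables by their symbols: the receptors Csf1r and Cx3cr1, the signalling adaptors Tyrobp and Fcer1g, the complement genes C1qa, C1qb and C1qc, and the lysosomal and scavenger genes Cd68, Mrc1 and Lyve1. All 10 symbols were present, and all 10 had counts in every library. The gonads came from wild-type C57BL/6J embryos, and no treatment is named. XX and XY gonads were mixed in each pool, with at least 6 male and at least 6 female gonads from 2 litters, so the sexes cannot be separated. Each time point gave 1 library, no replicate checks any value, and the intervals given here cover counting error only. At E11.5 alone the genital ridge was collected with the mesonephros, the embryonic kidney beside it. Total RNA depleted of ribosomal RNA (rRNA) was sequenced with strand and unique molecular identifiers.

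Tissue macrophages are phagocytes that settle in embryonic organs from the yolk sac and later from the fetal liver, and can persist there by self-renewal. CSF1R binds the growth factors CSF1 and IL-34 and is needed for macrophage survival, and CX3CR1 binds the membrane-tethered chemokine CX3CL1. TYROBP and FCER1G carry the activation motif (ITAM) through which surface receptors without a signalling tail recruit the kinase SYK, and C1q, made of A, B and C chains, tags targets for the classical complement pathway and for engulfment. In fetal gonads, macrophages are known for clearing dying cells and for shaping the vessels of the testis.

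The 3 C1q genes lie side by side on the minus strand of chromosome 4 in mm10, in the order C1qb, C1qc and C1qa, and span 18700 bases (chr4:136880145-136898844) that hold no other listed feature. Fcer1g (chr1:171229572-171234368) and Cx3cr1 (chr9:120048683-120068296), Cd68 (chr11:69664213-69666646) and Lyve1 (chr7:110850607-110862953) are on the minus strand. Tyrobp (chr7:30413788-30417582) and Mrc1 (chr2:14229414-14332023) are on the plus strand. Of the 10 genes, Cx3cr1 alone overlapped another listed feature, by 16 bases on the opposite strand, and that feature, LOC102636917, had 1, 0, 2 and 0 counts in the order of embryonic day.

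PU.1, the transcription factor encoded by Spi1 and required for the myeloid lineage, binds sites with the core GAGGAA. The 250 bases before the RefSeq start (GRCm38.p6) were given for 6 of the 10 genes and were searched for this core on both strands, where the minus-strand match reads TTCCTC. It was found in 4 of the 6 (C1qb, C1qc, Cd68 and Mrc1) and in 23.3% of the 32851 windows of the same length given for all genes. A match is a run of letters and not a measured binding site. The 3 windows below are shown because they hold the core, lie outside the listed exons and include 2 genes of the C1q cluster, and they are written 5′ to 3′ on the gene's strand with the match in capitals. The last base of each window is position -1. The match begins at position -30 in C1qb (chr4:136886201-136886450, minus strand), at -193 in C1qc (chr4:136892915-136893164, minus strand), and at -180, -167 and -35 in Mrc1 (chr2:14229164-14229413, plus strand).
C1qb: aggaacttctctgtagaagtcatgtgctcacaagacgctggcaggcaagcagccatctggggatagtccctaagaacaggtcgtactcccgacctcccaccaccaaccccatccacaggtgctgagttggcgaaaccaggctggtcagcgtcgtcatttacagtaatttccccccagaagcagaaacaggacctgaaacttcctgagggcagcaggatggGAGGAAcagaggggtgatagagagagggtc
C1qc: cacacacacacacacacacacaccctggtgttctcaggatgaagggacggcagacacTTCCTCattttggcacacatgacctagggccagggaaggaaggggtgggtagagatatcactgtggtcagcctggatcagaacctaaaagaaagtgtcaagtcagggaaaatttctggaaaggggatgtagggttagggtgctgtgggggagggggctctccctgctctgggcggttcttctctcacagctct
Mrc1: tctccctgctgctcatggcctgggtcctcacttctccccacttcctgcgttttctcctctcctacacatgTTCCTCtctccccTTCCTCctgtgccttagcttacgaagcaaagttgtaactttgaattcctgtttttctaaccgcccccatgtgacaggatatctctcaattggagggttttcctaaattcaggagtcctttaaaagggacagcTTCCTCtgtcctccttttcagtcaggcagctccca

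Library totals ranged from 25593453 to 31752562 counts. Genes for rRNA took 8.72% to 17.7% of the counts in the first 3 libraries and 48.9% at E14.5, so the scaling of the E14.5 library moves all its values. Levels below are CPM, the share of a library's counts on a fixed scale, adjusted by the trimmed mean of M-values (TMM), which sets the bulk of genes level between libraries, and TPM is used where genes of different length are compared. The tissue label was matched by its own markers, as the gonad genes Nr5a1 and Gata4 had at least 2136 counts in every library. A difference was called at 2-fold or more in either direction, without a test.

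Counts in series of 4 follow the embryonic days. The 10 genes together held 2789, 1071, 1369 and 880 counts. Their summed level was 81.9 TMM-scaled CPM at E11.5 (95% counting interval 78.9 to 85.0), 34.6 at E12.5 (32.5 to 36.7), 34.8 at E13.5 (32.99 to 36.7) and 45.5 at E14.5 (42.6 to 48.6). The E11.5 library stood above the other 3, and the E12.5 and E13.5 libraries did not differ beyond counting error. E14.5 ranked second on this scale, but had the lowest sum as a share of total counts (27.9 CPM, against 41.8 at E12.5) and in TPM (15.5, against 28.9 at E12.5). In a bulk sample, fewer macrophages, less RNA per macrophage and more RNA from other cells cannot be told apart.

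**Figure D1:**
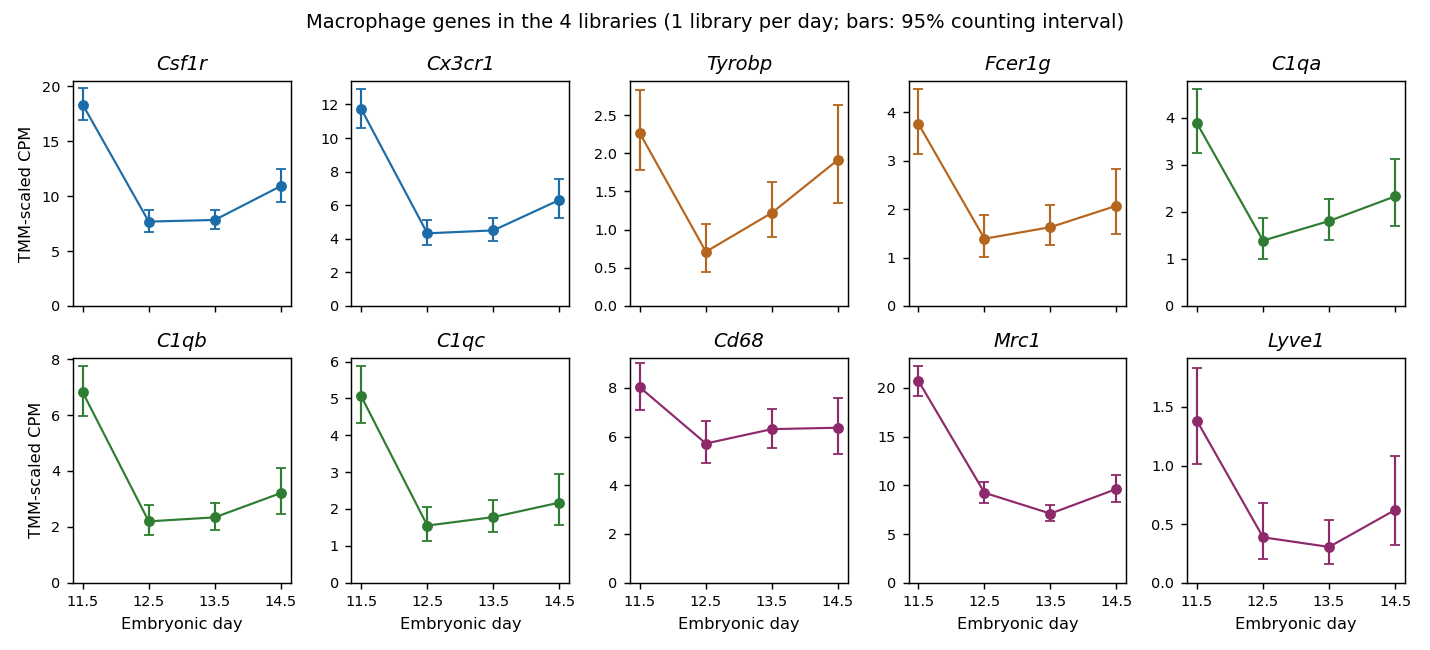
Level of each of the 10 genes (TMM-scaled CPM, y axis from 0, own range per panel) against embryonic day, with 1 library per day and bars for the 95% counting interval. Every gene is highest at E11.5 on this scale; the position of E14.5 above E12.5 holds on this scale and is turned for 9 of the 10 genes when total counts are used.

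The first question was how the macrophage genes differed once the gonad was past E11.5. From E11.5 to E12.5, 9 of the 10 genes fell by 2-fold or more and none rose, where 9.11% of the 19215 genes compared were 2-fold lower and 8.64% were 2-fold higher. The median log2 fold change of the 10 genes was -1.47, against -0.0041 for all genes compared, whose quartiles were -0.32 and 0.28. With total counts 9 genes were again 2-fold lower (7.63% of all genes), and by the ratio of deposited TPM 7 were (6.42%). The exact test of edgeR at a preset biological coefficient of variation of 0.1, 0.2 or 0.4 and FDR at most 0.05, which compares these libraries and not the conditions, called 9, 8 and 0 of them lower, where it called 7.15%, 4.58% and 0.775% of all genes lower. All 10 counting intervals lay below 0, and the summed counts gave -1.25 (-1.36 to -1.15). The mesonephros was part of the E11.5 tissue alone, so embryonic day and removal of the mesonephros cannot be told apart in this comparison.

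Of the receptors, Csf1r, on the plus strand of chromosome 18 (chr18:61096661-61131139), had 624, 238, 308 and 211 counts. It was highest at E11.5 with 18.3 TMM-scaled CPM, and its E12.5 and E13.5 levels, 7.69 and 7.83, overlapped within counting error. From E11.5 to E12.5 it fell by 1.26 on the log2 scale (-1.48 to -1.04), a 2.40-fold difference. Cx3cr1 had 399, 134, 177 and 122 counts and the same order of libraries, with 11.7 TMM-scaled CPM at E11.5 and 4.33 at E12.5. Its log2 fold change to E12.5 was -1.45 (-1.74 to -1.16). Among the 10 genes, the profile of Cx3cr1 over the 4 libraries was nearest to the median profile of the group.

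The adaptor Tyrobp, also called DAP12, was counted least after Lyve1, with 77, 22, 48 and 37 counts. It fell by 1.67 on the log2 scale from E11.5 to E12.5 (-2.43 to -0.98), and neighbouring libraries in its order of levels (E11.5, E14.5, E13.5, E12.5) all overlapped within counting error. Fcer1g, the common gamma chain of Fc receptors, had 128, 43, 64 and 40 counts and a log2 fold change to E12.5 of -1.44 (-1.98 to -0.94). Both adaptors were thus past 2-fold at E12.5, but each interval reached changes smaller than 2-fold.

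The C1q chains moved together. C1qa had 132, 43, 71 and 45 counts, C1qb had 232, 68, 92 and 62, and C1qc had 172, 48, 70 and 42. Each was highest at E11.5 and lowest on the TMM scale at E12.5, and the 3 libraries after E11.5 overlapped between neighbours for all 3 chains. Their log2 fold changes to E12.5 were -1.49 (-2.02 to -0.98) for C1qa, -1.64 (-2.05 to -1.25) for C1qb and -1.71 (-2.21 to -1.24) for C1qc. Within the C1q counts, which need no scaling between libraries, C1qb took 43.3%, 42.8%, 39.5% and 41.6% by day, and its 4 intervals overlapped (the widest, at E14.5, ran from 33.6% to 49.96%). C1qa took 24.6% to 30.5% and C1qc 28.2% to 32.1%, also with overlapping intervals. A shift in chain composition was not detectable at this depth.

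The lysosomal and scavenger genes were less alike. Mrc1, the mannose receptor, was the most counted of the 10 genes at E11.5, with 705, 286, 279 and 186 counts, and fell by 1.17 on the log2 scale to E12.5 (-1.38 to -0.97). Lyve1, a hyaluronan receptor of lymphatic endothelium and of some macrophages, had 47 counts at E11.5 and 12 in each later library, and fell by 1.83 (-2.89 to -0.90). With 12 counts, its later libraries cannot be ordered. Cd68, a glycoprotein of lysosomes and late endosomes, was the exception, with 273, 177, 248 and 123 counts and a log2 fold change to E12.5 of -0.50 (-0.78 to -0.22), short of 2-fold. Its TMM-scaled CPM were 8.02, 5.72, 6.31 and 6.36 by day, and neighbours in the order of these levels overlapped within counting error. The first Cd68 exon block listed in the files is 627 bases long and begins 476 bases before the RefSeq start, and the part of those bases in its counts was not tested.

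**Figure D2:**
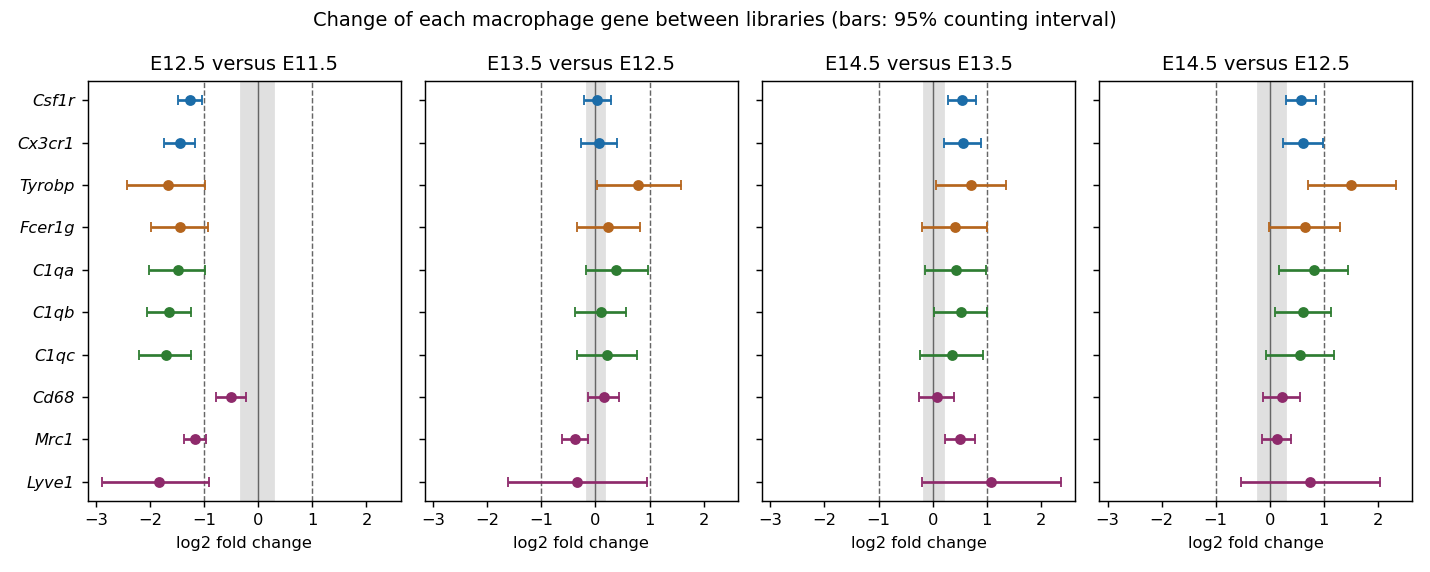
Log2 fold change (x axis) of each gene between 2 libraries with its 95% counting interval, coloured by role; the grey band runs between the quartiles of all genes compared and the dashed lines mark 2-fold. In E12.5 versus E11.5 all 10 intervals lie below 0 and Cd68, at -0.50, is the only point inside the 2-fold lines; the right-hand positions at E14.5 hold for TMM scaling and not for total counts.

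Shares of the 10 genes' own counts do not depend on the scaling. Cd68 took 9.79% of them at E11.5 (95% Clopper-Pearson interval 8.71% to 10.95%), 16.5% at E12.5 (14.3% to 18.9%), 18.1% at E13.5 (16.1% to 20.3%) and 13.98% at E14.5 (11.8% to 16.4%). The E11.5 interval lay below the other 3. Mrc1 took 26.7% at E12.5 (24.1% to 29.5%) and 20.4% at E13.5 (18.3% to 22.6%), which did not overlap either. Csf1r stayed between 22.2% and 24.0% with overlapping intervals. Tyrobp went from 2.05% at E12.5 (1.29% to 3.09%) to 4.20% at E14.5 (2.98% to 5.75%), whose intervals overlapped narrowly.

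**Figure D3:**
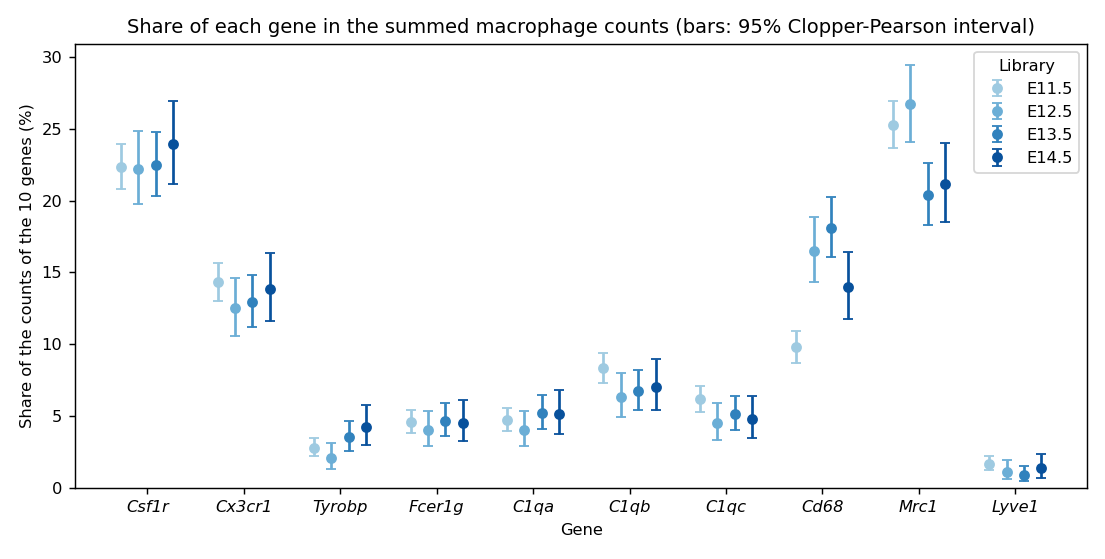
Share (%) that each gene took of the summed counts of the 10 genes in each library, with 95% Clopper-Pearson intervals. The Cd68 share is 9.79% at E11.5 and 13.98% to 18.1% later, while that of Csf1r stays between 22.2% and 24.0%.

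Between genes, levels were compared in TPM, which allows for exon length. At E11.5, C1qb was highest at 9.84 TPM (8.61 to 11.2), above C1qc at 7.05 TPM (6.04 to 8.19). C1qc, Cd68, Csf1r, Tyrobp, Fcer1g, Mrc1, C1qa and Cx3cr1 followed between 7.05 and 4.79 TPM, and no neighbours in that order differed beyond their counting intervals. Lyve1 was last at 0.81 TPM. Cd68 ranked first from E12.5 on, with 6.07 TPM at E12.5 (5.20 to 7.03) against 3.84 TPM for C1qb (2.98 to 4.87), and with 7.37 and 4.51 TPM at E13.5, again without overlap. At E14.5 Cd68 was first with 2.50 TPM but overlapped Tyrobp at 2.31 TPM. The TPM of Cd68 at E13.5 overlapped that at E11.5 (7.03 TPM, 6.22 to 7.91). Cx3cr1 ranked 9 and Lyve1 ranked 10 in all 4 libraries.

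The next comparison asked what followed in gonads without mesonephros. From E12.5 to E13.5 none of the 10 genes was past 2-fold, where 3.28% of 19152 genes were 2-fold higher and 1.98% were 2-fold lower. Their median log2 fold change was 0.12, and the summed counts gave 0.02 (-0.10 to 0.13). Tyrobp had the highest value, 0.79 (0.03 to 1.59), and Mrc1 the lowest, -0.37 (-0.62 to -0.13). The other 8 intervals included 0.

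From E13.5 to E14.5 the median of the 10 genes was 0.51 with TMM scaling, against 0.0051 for all genes, and -0.57 with total counts, where all genes had a median of -1.07. Relative to the median gene the group was higher, and a scaling factor cannot change this because it moves all genes alike. The sign of 9 of the 10 values turned between TMM and total counts. Lyve1 alone was past 2-fold with TMM (1.08, -0.19 to 2.37), from 12 counts in each library, where 6.44% of 18992 genes were 2-fold higher and 2.51% lower, and with total counts its value was 0.01. With total counts none of the 10 genes was 2-fold higher and 1, Cd68, was 2-fold lower, where 1.7% and 61.1% of all genes were, and by deposited TPM 8 were 2-fold lower, where 89% of all genes were. The exact test called none of the 10 higher at any of the 3 preset values, where it called 4.28%, 2.36% and 0.163% of all genes higher. With TMM, 5 intervals lay above 0, those of Csf1r, Cx3cr1, Tyrobp, C1qb and Mrc1, and the value of Csf1r was 0.54 (0.28 to 0.80). The rRNA share differed most in this comparison, at 8.72% and 48.9%, and its part in the result was not tested.

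Across the gonads without mesonephros, from E12.5 to E14.5, the median was 0.61 with TMM scaling and -0.43 with total counts, where all genes had medians of 0.0076 and -1.04. Tyrobp, with 22 and 37 counts, was the only gene past 2-fold with TMM (1.49, 0.70 to 2.33), where 8.44% of 18704 genes were 2-fold higher and 3.33% lower, and its value with total counts was 0.45. It was the only one of the 10 genes that was higher at E14.5 under both scalings, although its ratio of deposited TPM was slightly below 1 (-0.0022 on the log2 scale). The exact test called it at the lowest preset value alone, where 6.45% of all genes were called higher, against 3.74% and 0.369% at the others. With total counts none of the 10 genes was 2-fold higher or lower, where 2.5% and 54.9% of all genes were, and by deposited TPM 2 were 2-fold lower, where 82.2% of all genes were. Mrc1 had the lowest value with TMM, 0.13 (-0.15 to 0.40).

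**Figure D4:**
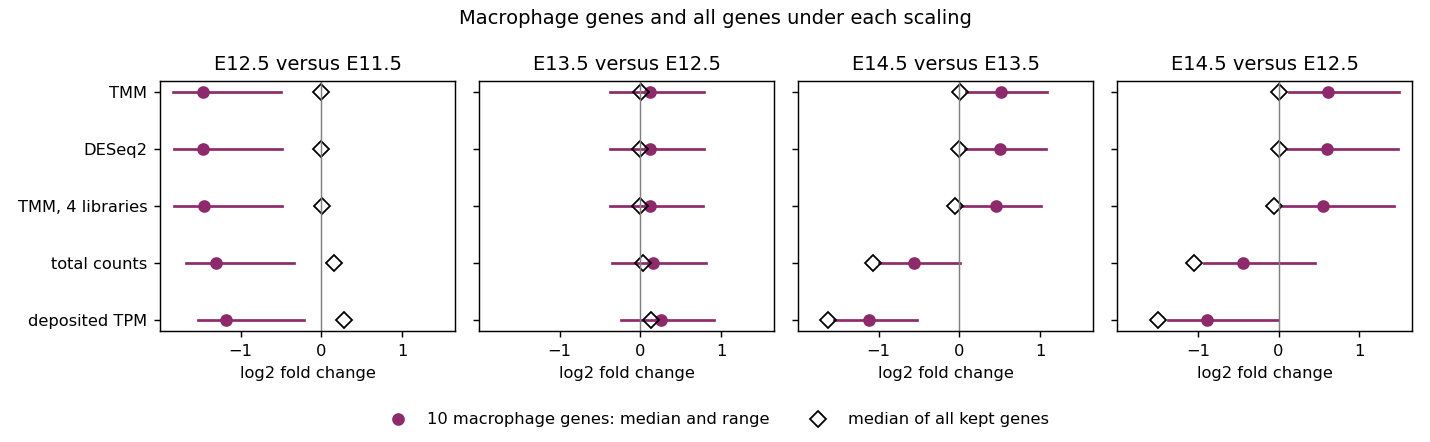
Median (point) and range (line) of the log2 fold changes of the 10 genes and the median of all genes compared (open diamond) under 5 scalings. In E12.5 versus E11.5 the whole range is below 0 under each of them. In both comparisons with E14.5 the median of the 10 genes is positive under the 3 TMM and DESeq2 scalings. It is negative with total counts or deposited TPM. It lies to the right of the diamond in all 5, which the scalings cannot change because they move all genes nearly alike.

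The later libraries were set against the same E11.5 library, the only one with mesonephros, so these values are not independent of the comparison above. At E13.5, 8 genes were 2-fold lower than at E11.5 (10.1% of all genes), with a median of -1.30. At E14.5, 4 were (8.12% of all genes), C1qb, C1qc, Mrc1 and Lyve1, with a median of -0.82 under TMM scaling. Total counts in place of TMM shift every value of E14.5 versus E11.5 by -0.88 on the log2 scale. As a share of total counts the 10 genes together were at 89.2 CPM at E11.5 and 27.9 CPM at E14.5.

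A list of 30 other genes expressed by macrophages was examined next, and 25 had enough counts to be compared from E11.5 to E12.5. Of these, 16 fell by 2-fold or more and none rose, where 9.11% of all genes were 2-fold lower and 8.64% higher, and their median log2 fold change was -1.23. Fcgr1, the high-affinity IgG receptor, had 46 counts at E11.5 and 9 at E12.5 (-2.21), and Lyz2, lysozyme, had 215 and 43 (-2.19). Ptprc, the pan-leukocyte antigen CD45, had 188 and 41 counts (-2.07), and Fcgr3 had 127 and 32 (-1.86). The F4/80 gene Adgre1, listed under its older symbol Emr1, went from 145 to 57 counts (-1.22). Positive values short of 2-fold were found for 3 genes, named after their values were seen: Slc11a1 (0.86), Mertk (0.31) and Cd14 (0.26). Vsig4 had no count in any library, which allows up to 3 counts or 0.117 CPM in the smallest library, and Cd163 and Timd4, markers of mature resident macrophages, had at most 3 counts.

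From E12.5 to E13.5 the median of that list was 0.15. Lyz2 was its only gene past 2-fold (1.03, from 43 to 111 counts), where 3.28% of all genes were 2-fold higher and 1.98% lower. It reached 180 counts at E14.5, a log2 fold change from E13.5 of 1.79 with TMM scaling. From E12.5 to E14.5, 12 of 25 genes were 2-fold higher with TMM and none lower, where 8.44% of all genes were higher and 3.33% lower, with a median of 0.96, whereas the median with total counts was -0.083.

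Ligands and regulators of the lineage did not all move with the 10 genes. Csf1, a ligand of CSF1R, had 377 counts at E11.5 and 149 at E12.5 (-1.21), and Spi1 had 76 and 31 (-1.16). The second ligand, Il34, had 21 and 24 counts (0.32). Cebpa, a myeloid transcription factor that other cell types use too, rose from 140 to 325 counts (1.34). Of the 10 genes in this list 7 were not called, 2 were lower and 1 was higher. Of all genes 9.11% were lower and 8.64% higher, so these counts are too small to set the list apart. Cx3cl1, the ligand of CX3CR1, rose from 310 to 737 counts (1.38), opposite in sign to its receptor, while the proteases that shed it, Adam10 and Adam17, had values of 0.34 and 0.06.

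Of 16 genes for ITAM-linked receptors and their signalling, 6 fell and 1 rose from E11.5 to E12.5, against 9.11% and 8.64% of all genes. Those that fell included Fcgr1 and Fcgr3, which the list of other macrophage genes also holds, the receptor Clec7a (46 and 10 counts, -2.06), the integrin Itgb2 (71 and 19, -1.77) and the adaptor Lcp2 (90 and 31, -1.41). The single gene that rose, a share no larger than that of all genes, was Plcg2, a phospholipase downstream of SYK, from 262 to 930 counts (1.96). Syk itself had 812 and 954 counts (0.36).

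Outside C1q, the complement list held 1 gene that rose from E11.5 to E12.5 and 1 that fell among 18 compared, shares below the 8.64% and 9.11% of all genes. Of the proteases that partner C1q in the C1 complex, C1ra rose from 47 to 160 counts (1.89), and C1s1 had 117 and 54 counts and a negative value short of 2-fold (-0.99, -1.48 to -0.51). The receptor C3ar1, also in the list of other macrophage genes, fell from 284 to 91 counts (-1.51). C4a and C4b, near-identical copies between which reads can be split, rose at E13.5, with C4b at 4, 8, 46 and 43 counts and C4a at 19, 22, 62 and 40. C3 went from 52 to 88 counts between E13.5 and E14.5 (1.85 with TMM scaling). Of 13 genes for the uptake of dying cells, 3 rose at E12.5, where 8.64% of all genes did, among them the bridging ligand Gas6 (1052 to 2796 counts, 1.54) and its receptor Tyro3 (1.24), and 1 fell, the scavenger receptor Stab1 (2852 to 886 counts, -1.56).

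Markers of other cells that could contribute to the same RNAs were compared as well. Mrc1 and Lyve1 are also made by endothelial cells. With TMM scaling, none of 8 blood endothelial genes was past 2-fold in any of the 4 comparisons. Of all genes, 9.11% were 2-fold lower and 8.64% higher from E11.5 to E12.5, so a count of 0 among 8 does not set this list apart. Its median was -0.25 from E11.5 to E12.5, with summed levels of 442, 421, 315 and 278 TMM-scaled CPM over the 4 libraries. Total counts in place of TMM shift every value by -1.08 in E14.5 versus E13.5 and by -1.05 in E14.5 versus E12.5, and the calls there depend on the scaling. Of 4 lymphatic endothelial genes compared, Prox1 fell from 427 to 183 counts (-1.09) and Pdpn rose (1.13), and Ccl21a had at most 2 counts.

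Fcer1g is also made by mast cells, whose genes had summed counts of 81, 164, 308 and 196. Their summed levels were 2.38, 5.30, 7.83 and 10.1 TMM-scaled CPM, but in TPM the sum was 8.08 at E13.5 and 3.96 at E14.5. Most of these counts in each library were of Hdc, with 73, 143, 206 and 103. Cpa3 had 2, 16, 60 and 51 counts, Cma1 had 0, 1, 22 and 25, Mcpt4 had at most 3, and Fcer1a had no count. Neutrophil genes were lower at E12.5 as well, 5 of 7 past 2-fold where 9.11% of all genes were, and with TMM scaling 5 of 8 were 2-fold higher at E14.5 than at E13.5, where 6.44% of all genes were. Their summed level was 20.8, 7.10, 10.5 and 48.9 TMM-scaled CPM, led by S100a8 (114, 22, 92 and 194 counts) and S100a9 (135, 22, 77 and 264). Of 3 monocyte genes compared, F13a1 (228, 72, 91 and 95 counts) fell from E11.5 to E12.5 (-1.53). With TMM scaling 2 of the 3 were 2-fold higher at E14.5 than at E13.5, where 6.44% of all genes were. They were Ccr2 (29, 16, 31 and 39 counts, 1.42) and F13a1 (1.15). Both were also 2-fold higher than at E12.5 (2.02 and 1.15), where 8.44% of all genes were. Of 7 gonad somatic genes 5 rose from E11.5 to E12.5, where 8.64% of all genes did, with a median of 1.34 and Nr5a1 at 2136 and 4962 counts. All 5 germ cell genes rose, with a median of 3.45 and summed levels of 14.54 and 286 TMM-scaled CPM. Mesonephric genes went from a summed 143 to 25.2 TMM-scaled CPM between E11.5 and E12.5, with a median of -3.37. Of these 7 genes 5 were 2-fold lower, where 9.11% of all genes were. The part of these cell types in the values of the 10 genes, and in those of the list of other macrophage genes, was not tested.

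**Figure D5:**
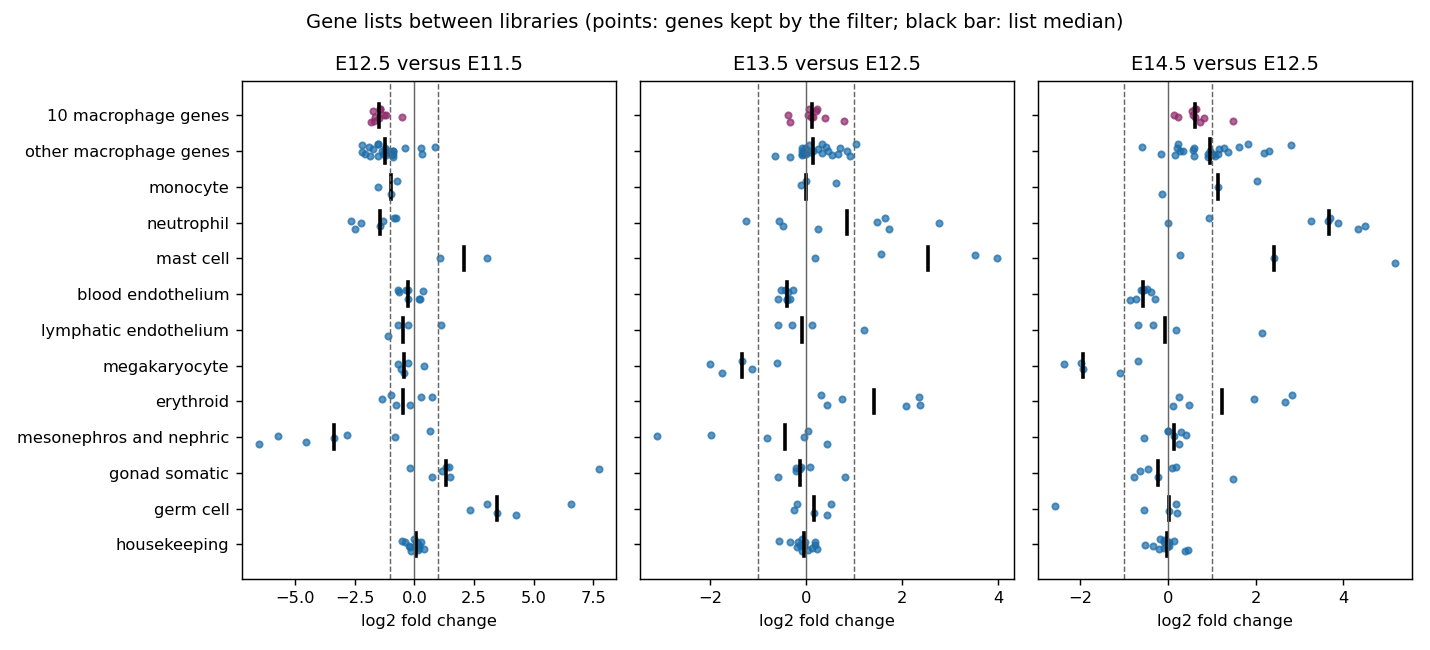
Log2 fold change (x axis, own range per panel, TMM scaling) of each gene compared, grouped by list, with the list median as a black bar and dashed lines at 2-fold. In E12.5 versus E11.5 the 10 macrophage genes (purple) and the other macrophage genes lie mostly left of -1. So do most of the neutrophil and mesonephric genes compared. Blood endothelial and housekeeping genes lie inside the lines. Positions in the E14.5 panel shift left with total counts.

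Housekeeping genes were listed for comparison and were not used to set the scaling. In deposited TPM their sum was 5441 at E13.5 and 1755 at E14.5, so the values below hold for TMM scaling. None of 15 was past 2-fold in any comparison, and their medians were 0.06, -0.05, -0.0061 and -0.02 in the order given above.

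The 5 genes nearest to the median profile of the 10 macrophage genes, by Euclidean distance of mean-centred log2 levels over the 4 libraries among 16364 genes with at least 100 counts over the 4 libraries, were Syt11 (0.0771), Ap1m2 (0.0996), Adamts3 (0.103), Adamts15 (0.105) and Ctnnd2 (0.106). None of these 5 is in any of the macrophage or other cell type lists used here. Of the 10 genes themselves, Cx3cr1 (0.0655) was nearer than all 5 and Fcer1g (0.0828) nearer than 4 of them. The median profile was taken from these 10 genes, so their own nearness to it is partly built in. The 10 genes ranged up to 0.791 for Cd68 with a median of 0.223. The profile rests on 4 libraries and was high at E11.5 (0.90), low at E12.5 (-0.55) and E13.5 (-0.41) and 0.03 at E14.5.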

How the data were processed

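Total RNA of 4 libraries, 1 per time point, was analysed, and samples were assigned to time points by their labels. The authors removed rRNA with probes and RNase H, and used STAR for alignment to mm10, UMI-based removal of duplicates and featureCounts for the gene counts, which were analysed as deposited. The deposited TPM values equal those counts over exon length, rescaled by the authors within a library. Tool versions and the annotation release are not given in the sources used here.

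The 10 genes and all gene lists were chosen with earlier results of these data known. Calculations used R 4.3.3, edgeR 4.0.16, DESeq2 1.42.0, Python 3.11.15 with matplotlib 3.10.9, scipy 1.17.1, pandas 2.3.3 and numpy 2.4.6. For each pair of libraries, genes kept by filterByExpr (minimum count 10) were scaled by TMM on the pair, and levels over the 4 libraries by TMM on all 4. Log2 fold changes are later over earlier with a prior count of 0.125, and their 95% intervals are exact Clopper-Pearson intervals of the share of counts. Intervals of levels are exact Poisson intervals. Scripts were tested on simulated data.

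Besides the 10 genes, the text names up to 5 genes of each list and comparison past 2-fold and holding 30 or more counts in the higher library, defining markers near 0, and the 5 nearest profiles. Il34, Adam10, Adam17, Syk, Adgre1, C1s1, LOC102636917, Cd14, Mertk, Slc11a1 and Cma1 lie outside this rule and were named after their values were seen. The symbols Adgre1, C1s1 and Epb42 were matched to older symbols in the files through RefSeq.

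Alternatives were DESeq2 size factors, total counts, TMM without rRNA and the 10 most abundant genes, TMM on all 4 libraries, other filters, a prior count of 2, the ratio of deposited TPM (pseudocount 0.01), the group without Lyve1 and Mrc1, and edgeR's exact test at a preset biological coefficient of variation of 0.1, 0.2 or 0.4 with FDR at most 0.05. The E13.5 and E14.5 libraries in place of E12.5 were added after the data were seen.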

Additional observations from a re-analysis of the deposited data

How the results depend on the processing

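No paired analysis was possible because each time point has 1 library and the labels carry no replicate numbers, and no library could be left out of a pair. Of 164 values recomputed under an alternative, 131 moved by less than the counting error or stayed within 1.5 times the count, 33 moved further, and the counts of genes past 2-fold from E11.5 to E12.5 stayed at 7 to 9 lower under every scaling, filter, unit and prior count. With total counts, the median of the 10 genes was -1.31 at E12.5 versus E11.5, -0.57 at E14.5 versus E13.5 and -0.43 at E14.5 versus E12.5, that of the other macrophage genes was -1.07, -0.47 and -0.083, no gene was 2-fold higher at E14.5, and 1 was 2-fold lower than at E13.5. With the ratio of deposited TPM, the 4 medians in the order of the report were -1.18, 0.26, -1.12 and -0.88 for the 10 genes and -0.93, 0.27, -1.01 and -0.52 for the others, 0 genes were 2-fold higher at E14.5, and 8 and 2 were 2-fold lower than at E13.5 and E12.5. A prior count of 2 left 0 genes 2-fold higher at E14.5 than at E13.5. The exact test called 9, 8 and 0 of the 10 genes lower at E12.5 at a preset biological coefficient of variation of 0.1, 0.2 and 0.4, none higher at E14.5 than at E13.5, and 1, 0 and 0 higher than at E12.5, so the count at E12.5 depends on the preset value. With E13.5 in place of E12.5 the medians against E11.5 under TMM scaling were -1.30 for the 10 genes and -0.98 for the others. With E14.5 they were -0.82 and -0.28, also under TMM scaling, with 4 of the 10 genes 2-fold lower. In E14.5 versus E13.5 and E14.5 versus E12.5, the median of the 10 genes stayed above that of all genes. This held under every scaling, filter, unit and prior count. In E14.5 versus E11.5 with TMM scaling it lay below, at -0.82 against -0.0022. Scaling and unit move all genes nearly alike, so they could not have changed this. Without Mrc1 and Lyve1 the median at E12.5 was -1.47. Values of Lyve1 and Tyrobp rest on as few as 12 and 22 counts.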

Other observations

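Genes of other blood cells differed between the libraries in their own ways. Megakaryocyte genes were lower at E13.5 than at E12.5, 4 of 5 past 2-fold, where 1.98% of all genes were 2-fold lower. They were led by Ppbp (170, 114, 36 and 17 counts in the order of embryonic day) and Pf4 (195, 122, 46 and 14). Of 8 lymphocyte genes, Cd3g, Ms4a1 and Nkg7 had at most 1 count in every library, and Cd3e had 110, 62, 48 and 56 counts. The neutrophil granule genes Ltf and Ngp had 110 and 162 counts at E14.5, against 10 and 18 at E13.5.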
